A study of Mus musculus with 6 samples.

Results

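The 40 genes described here encode the machinery of DNA replication and S phase, from the proteins that license origins to the enzymes that copy and repackage the DNA. They were taken as a fixed list of gene names, and all 40 were found among the 22880 genes of the expression table. RNA was sequenced from MC-38GFP tumor cells, a mouse colon adenocarcinoma line marked with green fluorescent protein (GFP), which had been grown as orthotopic tumors in the cecum wall of C57BL/6J mice and sorted as living GFP+ cells lacking CD45 and CD31. HIF-1α-KD cells had a stable knockdown of HIF-1α and Mock cells were their control. Both groups had been transduced with the vector pLKO.1-puro per the labels, and neither had been passaged in vivo. Each group had 3 libraries, named here Mock 1 to 3 and HIF-1α-KD 1 to 3, and between 19845852 and 30809139 reads were counted on genes in each. The labels do not say whether each library came from its own tumor or animal, so the p-values measure only the spread between these libraries.

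Replication begins in G1, when the origin recognition complex, Cdc6 and Cdt1 load the ring-shaped MCM2-7 helicase onto DNA. At the start of S phase Cdc45 and the GINS complex join the ring and turn it into an active helicase, after which primase, the replicative polymerases, the sliding clamp and its loader copy the strands. Transcription of these genes is driven by E2F factors, which the cyclin E kinase helps to release from the retinoblastoma protein, and their messages are therefore a common measure of how many cells in a tumor are cycling. HIF-1α, the oxygen-sensitive subunit of the hypoxia-inducible factor, is known as a brake on replication under low oxygen, and the comparison of HIF-1α-KD with Mock cells asks whether the messages of this machinery differ when tumor cells have less of it. In bulk libraries a smaller number of cycling cells and less RNA per cycling cell cannot be told apart.

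To show the shared promoter element of this gene set, the bases just before the transcription start were read from RefSeq (GRCm38.p6) for 9 members, 1 or 2 from most steps of replication. Each sequence below holds the 120 bases that end at the base before the start, 5′ to 3′ on the strand of the gene, and the capitals mark the E2F core, searched on both strands in the form TTCCCGC, in the form TTGGCGC, in the form TTCGCGC and in the form TTGCCGC. The promoters of Orc1 (chr4:108579334-108579453, plus strand), Mcm6 (chr1:128359706-128359825, minus strand), Rfc3 (chr5:151651209-151651328, minus strand), Rpa2 (chr4:132768240-132768359, plus strand), Prim1 (chr10:128015095-128015214, plus strand), Rrm1 (chr7:102441575-102441694, plus strand), E2f8 (chr7:48881597-48881716, minus strand) and Chaf1a (chr17:56040296-56040415, plus strand) hold the core, whereas that of Ccne1 (chr7:38107491-38107610, minus strand), the member with the largest fold difference between the groups, is shown because it holds none in these letters.
Orc1: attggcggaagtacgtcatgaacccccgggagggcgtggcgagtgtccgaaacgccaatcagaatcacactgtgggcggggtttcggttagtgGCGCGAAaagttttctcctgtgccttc
Mcm6: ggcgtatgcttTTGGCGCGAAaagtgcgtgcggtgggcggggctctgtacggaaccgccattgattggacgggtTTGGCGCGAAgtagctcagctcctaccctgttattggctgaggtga
Rfc3: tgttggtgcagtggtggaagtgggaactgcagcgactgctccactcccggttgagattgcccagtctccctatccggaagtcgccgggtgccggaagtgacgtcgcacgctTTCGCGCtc
Rpa2: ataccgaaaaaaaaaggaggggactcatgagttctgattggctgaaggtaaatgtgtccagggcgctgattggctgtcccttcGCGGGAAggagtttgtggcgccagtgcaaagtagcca
Prim1: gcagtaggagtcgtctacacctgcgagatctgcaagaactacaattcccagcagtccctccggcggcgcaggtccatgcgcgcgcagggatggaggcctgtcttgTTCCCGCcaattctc
Rrm1: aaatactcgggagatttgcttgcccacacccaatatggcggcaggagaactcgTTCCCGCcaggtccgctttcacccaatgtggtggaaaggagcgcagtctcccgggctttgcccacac
E2f8: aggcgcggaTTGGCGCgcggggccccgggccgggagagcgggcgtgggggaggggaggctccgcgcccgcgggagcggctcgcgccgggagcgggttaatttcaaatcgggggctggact
Chaf1a: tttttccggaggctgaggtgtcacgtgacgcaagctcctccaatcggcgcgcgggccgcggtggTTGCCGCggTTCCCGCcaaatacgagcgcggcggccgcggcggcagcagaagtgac
Ccne1: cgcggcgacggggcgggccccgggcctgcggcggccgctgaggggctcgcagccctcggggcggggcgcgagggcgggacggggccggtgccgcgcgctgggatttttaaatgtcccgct

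The match in the Orc1 promoter begins 27 bases before the start, that of Rpa2 begins 37 bases before it and that of Rrm1 67 bases before it. The Mcm6 promoter holds 4 matches, in a pair of stretches that begin 109 and 46 bases before the start, each made of 1 match per strand that overlap. The Chaf1a promoter holds 2 matches, which begin 56 and 47 bases before the start. Promoter windows from 250 bases before to 50 bases after the start were found for 33 of the 40 members, and Mcm4, Gins1, Gins2, Rfc2, Prim2, Pole and Ccne2 had none. Because some genes have several starts, these were 38 windows, and 26 of them (68.4%) held an E2F core, against 9.57% of all 32851 windows. These windows belonged to 23 of the 33 members. Ccne1 was not alone in lacking the core, since Mcm2, Mcm10, Pcna, Cdc45, Orc6, Rfc5, Rpa1, Pola2 and E2f1 held none in their windows either. CCAAT, the box bound by NF-Y, stood in 65.8% of the members' windows and 37.4% of all windows, and both elements together in 50% and 3.66%. The core of the hypoxia response element (ACGTG or GCGTG, either strand) stood in 65.8% of the members' windows and 43.8% of all. The element CHR (TTTGAA or TTTAAA), known from mitotic genes, was in 23.7% and 27.6%, and TATAAA in 5.26% and 13.6%. The members' windows were also richer in CpG, with a median of 24 CpG against 7. Among the 6563 windows with at least 24 CpG the E2F core stood in 23.8%, and among the members' 21 such windows in 14. Both forms of the core of the hypoxia response element also hold a CpG. Its share among windows of like CpG content was not computed, so its 65.8% against 43.8% is not read as an enrichment. A match of letters is a description of the window and does not show that a factor binds there.

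The knockdown was visible in its target. Hif1a had normalized counts (reads divided by 1 factor per library) of 6914, 5424 and 4945 across Mock 1 to 3, against 697.3, 3142 and 1928 across HIF-1α-KD 1 to 3. The groups did not overlap, although the log2 fold change of -1.82 (SE 0.46) did not pass the adjusted test (limma, adjusted p = 0.219). The level of Hif1a was thus lowest in HIF-1α-KD 1, and the HIF-1α-KD libraries were far apart from each other. Summed over 10 leukocyte markers, the FPKM (reads scaled to the width of the gene and to the total of the library) was 141 to 196 across Mock 1 to 3, against 112, 283 and 551 across HIF-1α-KD 1 to 3, with Lyz2 at 294.6 in HIF-1α-KD 3. In HIF-1α-KD 2 the sum was carried by Cd74 (177.8), and without Cd74 the other 9 markers summed to 135 to 149 in Mock and to 89.8, 105 and 460 in HIF-1α-KD 1, 2 and 3. The 7 markers of fibroblasts and pericytes, mostly Dcn, summed to 545, 560 and 973 in Mock 1, 2 and 3 and to 625, 710 and 421 in HIF-1α-KD 1, 2 and 3. Endothelial markers summed to 8.81 to 11.3 in the 6 libraries, and the 9 markers of colon epithelium to 2.22 to 18.9, highest in Mock 3, with Epcam, Cdx2 and Vil1 under 1 in every library.

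None of the 40 replication genes differed between HIF-1α-KD and Mock cells at an adjusted p-value under 0.05, where 0.391% of the 12014 genes tested did (limma on log2 of the normalized count plus 1, Benjamini-Hochberg over all genes tested). The lowest adjusted p-value of a member was 0.329. All 40 members passed the filter on low counts, and no member had fewer than 133 reads in any library. At an unadjusted p-value under 0.05, 3 members were higher in HIF-1α-KD cells, Rfc1, Ccne1 and Cdc6, against a background of 7.04% of all genes tested, and no member was lower, against 5.69%. The same 3 members were the only ones at an unadjusted p-value under 0.05 with the quasi-likelihood test of edgeR (12.4% of all genes tested in either direction). They were also the only ones with the Wald test of DESeq2 (13% in either direction). Neither gave a member at an adjusted p-value under 0.05, where 47 of the 12014 genes tested passed with edgeR and 283 with DESeq2. Cdc6 no longer had an unadjusted p-value under 0.05, leaving 2 members higher, under 3 other settings. These were limma without a mean-variance trend (6.23% of all genes tested higher), the replicate number as a block (5.97%) and a correction for GC content and gene width (7.03%). The count of members higher was therefore close to its background, and none was lower.

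Most members nevertheless had a higher mean in HIF-1α-KD cells. The log2 fold change was above 0 in 32 members and below 0 in 8, while 52.7% of all genes tested were above 0, and between 31 and 35 members were above 0 under the other scalings. It ranged from -0.23 to 0.72, with a median of 0.19 for the members and 0.02 for all genes tested. The groups did not overlap in 2 of the 40 members, against 19.2% of all genes tested. They were Rfc1, higher in HIF-1α-KD cells as 10.4% of all genes tested were, and Rfc4, lower as 8.75% were. The 95% interval of the fold change lay within 2-fold in either direction for 33 members and within 1.5-fold for 9. A difference larger than 2-fold was thus outside the interval for most replication genes, whereas the interval reached beyond 1.5-fold for 31.

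**Figure D1:**
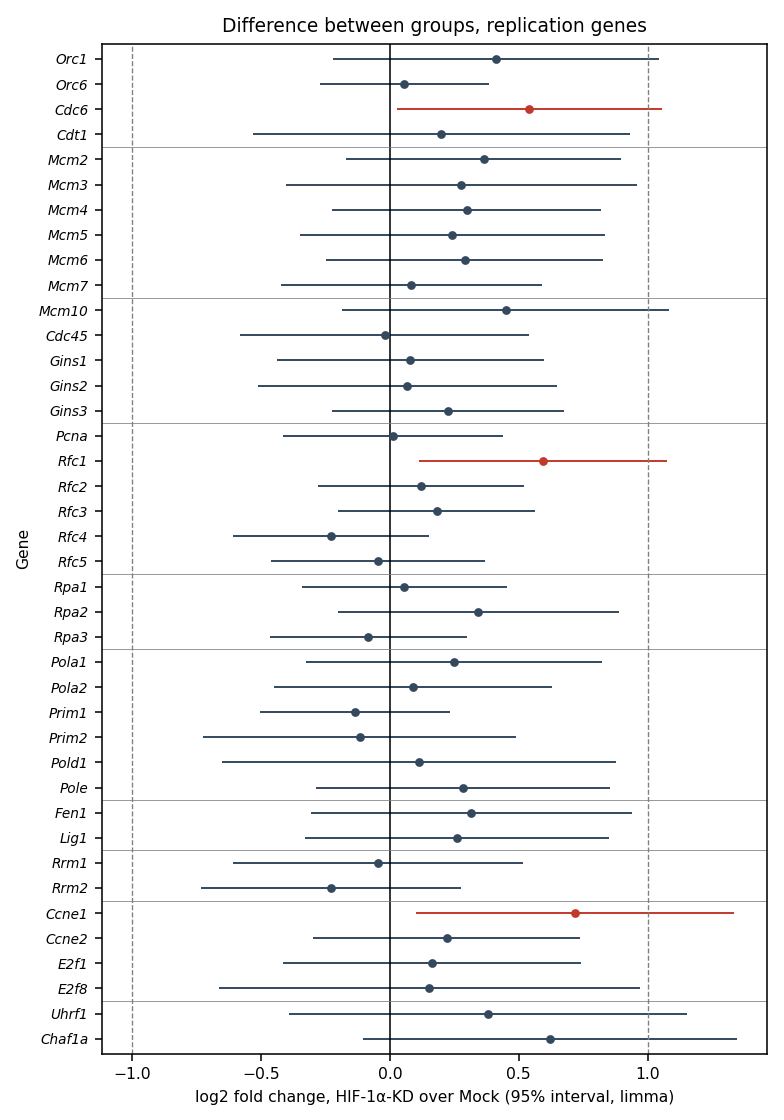
Log2 fold change of each of the 40 replication genes, HIF-1α-KD over Mock, with its 95% interval from limma (3 libraries per group). Red marks the 3 genes at an unadjusted p-value under 0.05 (Cdc6, Rfc1 and Ccne1), dashed lines mark a 2-fold difference and grey lines separate the steps of replication. Points lie between -0.23 and 0.72, and 32 of 40 lie right of 0.

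Of the 6 pairs of libraries within a group, 5 differed in the median over the members by more than the groups did (0.19). A pair compares single libraries and the groups compare means of 3 libraries, which vary less, so these values are not on equal terms. Relative to each gene's mean over the 6 libraries, the median log2 value of the 40 members was -0.45, 0.08 and 0.06 in Mock 1, 2 and 3 and 0.44, 0.09 and -0.28 in HIF-1α-KD 1, 2 and 3. HIF-1α-KD 1 was the highest of the 6 libraries in 31 of the 40 members, whereas Mock 1 was the lowest in 25 and HIF-1α-KD 3 in 11. For all genes tested the same shares were 23.2% for the first, 27.1% for the second and 14.9% for the third. Within the Mock group, 35 members were lower in Mock 1 than in Mock 2 and 36 lower than in Mock 3, with median differences of -0.48 and -0.52 on the log2 scale, whereas Mock 2 and Mock 3 differed by a median of 0.03. Within the HIF-1α-KD group, 37 members were higher in HIF-1α-KD 1 than in HIF-1α-KD 3, by a median of 0.75 on the log2 scale, 36 were higher than in HIF-1α-KD 2, by 0.30, and 38 were higher in HIF-1α-KD 2 than in HIF-1α-KD 3, by a median of 0.36. Across the 6 libraries the highest normalized count of a member was 1.23 to 3.45 times its lowest, with a median of 2.01. The SD within the groups had a median of 0.37 for the members and 0.25 for all genes tested, on the log2 scale.

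**Figure D2:**
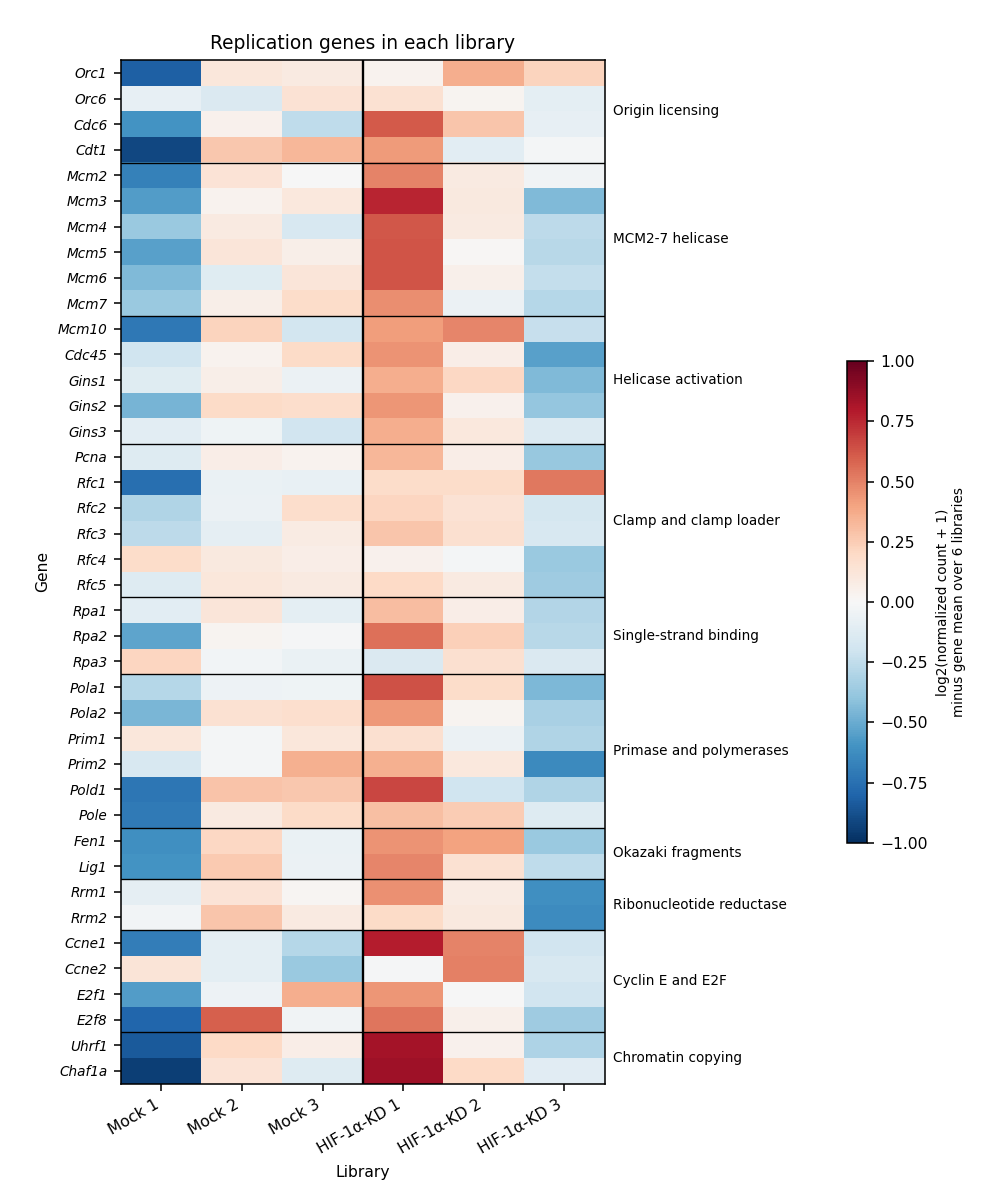
Log2(normalized count + 1) of each replication gene in each library, minus the mean of that gene over the 6 libraries, with genes in the order of the steps of replication (names at the right) and the groups separated by the thick line. Mock 1 is blue and HIF-1α-KD 1 red for most genes (lowest in 25 and highest in 31 of 40), and HIF-1α-KD 3 is above the mean in 2 genes, Rfc1 and Orc1.

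The size of the difference between the groups varied with the libraries included. Without Mock 1 the median log2 fold change of the members was 0.03, and without HIF-1α-KD 1 it was -0.0069, with 19 of 40 members above 0. Without HIF-1α-KD 3 it was 0.34, with 37 members above 0 and 8 members higher at an unadjusted p-value under 0.05 (Ccne1, Cdc6, Chaf1a, Mcm10, Rpa2, Mcm4, Pola1 and Fen1) against 5.66% of all genes tested. HIF-1α-KD 3 was the lowest HIF-1α-KD library for these genes. A rise of the median and of this count therefore follows in part from leaving it out, and the count is not read as an excess. When both Mock 1 and HIF-1α-KD 1 were left out, the median was -0.12 and 30 of 40 members lay below 0. These libraries were picked as the lowest Mock and the highest HIF-1α-KD library for these genes, so a fall of the median follows in part from that choice, and the values without them are descriptions. In that comparison of 2 against 2 libraries Rfc1 was higher at an unadjusted p-value under 0.05 and Cdt1 (log2 fold change -0.37) and Pold1 (-0.52) were lower, where 6.14% of all genes tested were higher and 5.59% lower. HIF-1α-KD 3, where the members were low, had the highest leukocyte markers (a summed FPKM of 551), and HIF-1α-KD 1, where they were high, had the lowest (112) and also the least Hif1a. Mock 1, where the members were lowest, had the lowest leukocyte sum of the Mock group (141), so the leukocyte markers did not order all 6 libraries as the members did. The part of these differences in the level of the replication genes was not tested.

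Mock 1 also differed from the other libraries in how expression followed the GC content of the genes. Over all genes tested the deviation of Mock 1 from the gene mean had a Spearman's rho of -0.47 with GC content, and over the 40 members of -0.63. These points share 1 library, and genes are not independent replicates. In the fifth of all genes with the least GC the median deviation of Mock 1 was 0.24, and in the fifth with the most it was -0.32. The members had a median GC content of 48.9% against 50.6% for all genes tested, from 37.3% in Rpa3 to 60.4% in Pold1. In Mock 1, the 20 members of lower GC had a median deviation of -0.14 and the 20 of higher GC of -0.56. After each library was corrected for GC content and gene width by a loess curve, the members' medians were -0.41, 0.08 and 0.09 in Mock 1, 2 and 3 and 0.41, 0.07 and -0.27 in HIF-1α-KD 1, 2 and 3. The order of the libraries at either end was therefore the same with the correction, and the median log2 fold change was again 0.19. Single genes moved more, with log2 fold changes after the correction of 0.23 for Mcm2, 0.18 for Pcna, 0.05 for E2f1 and -0.11 for Rfc4. Higher at an unadjusted p-value under 0.05 were then 2 members, Ccne1 and Rfc1, beside 7.03% of all genes tested.

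**Figure D3:**
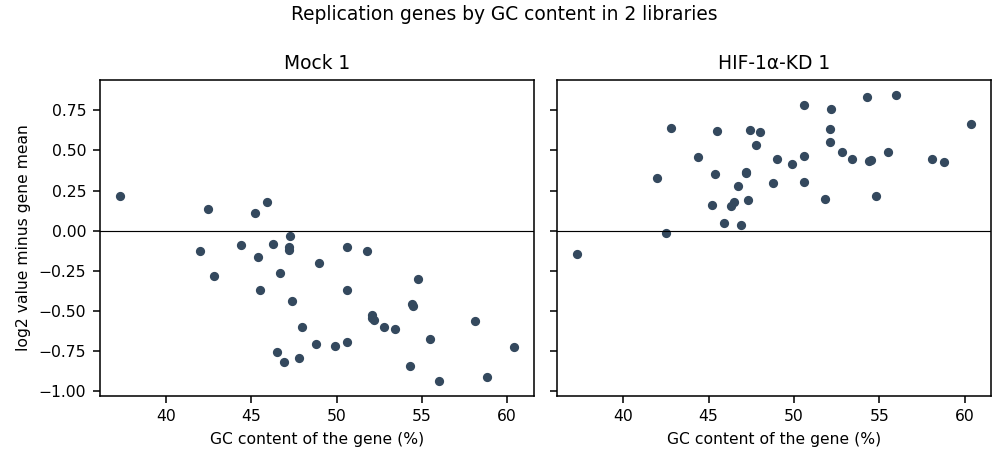
Deviation of each replication gene (log2(normalized count + 1) minus its mean over the 6 libraries) against the GC content of the gene in percent, in Mock 1 (left) and HIF-1α-KD 1 (right), with 1 point per gene. In Mock 1 the points fall with GC content (Spearman's rho -0.63 over 40 genes), and in HIF-1α-KD 1 they rise with it (0.48). In the libraries not drawn, rho was 0.45 in Mock 2, 0.30 in Mock 3, -0.22 in HIF-1α-KD 2 and 0.13 in HIF-1α-KD 3. All deviations are from the same gene means, so a fall in 1 library goes with a rise in others.

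Origin licensing had a median log2 fold change of 0.31, and all 4 of its members lay above 0. Cdc6, the ATPase that brings the helicase to the origin (chr11:98907801-98923940), had normalized counts of 792.8, 1235 and 1005 across Mock 1 to 3, against 1837, 1456 and 1135 across HIF-1α-KD 1 to 3. The mean was 1011 ± 221 (SD) in Mock and 1476 ± 351 in HIF-1α-KD cells, and HIF-1α-KD 3 lay below Mock 2, so the groups overlapped. The fold change of Cdc6 was 1.46 (log2 0.54, SE 0.23, limma adjusted p = 0.382), and without both Mock 1 and HIF-1α-KD 1 the log2 value was 0.21. When 1 library was left out, Cdc6 was past the unadjusted threshold in 2 of the 6 cases, without Mock 2 and without HIF-1α-KD 3. Cdt1, which loads the helicase together with Cdc6 and is destroyed once S phase begins, had 930.7, 2112 and 2203 across Mock 1 to 3, against 2347, 1625 and 1723 across HIF-1α-KD 1 to 3. Mock 1 alone was low for this gene, and the log2 fold change of 0.20 (SE 0.32, limma adjusted p = 0.831) was -0.20 without that library. Orc1, the largest subunit of the origin recognition complex, was also low in Mock 1, with 163.7, 312.9 and 308.0 across Mock 1 to 3, against 296.8, 372.9 and 337.3 across HIF-1α-KD 1 to 3. Orc6, its smallest subunit, varied least of all 40 members, from 2183 in Mock 2 to 2690 in HIF-1α-KD 1.

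All 6 subunits of the MCM2-7 helicase had a higher mean in HIF-1α-KD cells, with log2 fold changes from 0.08 to 0.36 and a median of 0.28, and none passed the unadjusted threshold. Each was highest in HIF-1α-KD 1 and lowest in Mock 1. Mcm2 had normalized counts of 2433, 4268 and 3874 across Mock 1 to 3, against 5468, 4143 and 3783 across HIF-1α-KD 1 to 3. Its log2 fold change was 0.36 (SE 0.23, limma adjusted p = 0.556), and without both Mock 1 and HIF-1α-KD 1 it was -0.04. Mcm3 had 4262, 6421 and 6755 across Mock 1 to 3, against 10610, 6710 and 4627 across HIF-1α-KD 1 to 3, and Mcm6 had 5223, 6523 and 7687 against 10930, 7317 and 6004. In both genes HIF-1α-KD 1 stood above the other 5 libraries, and HIF-1α-KD 3 lay below 2 of the 3 Mock libraries. The subunits differed in level: Mcm7 had the highest FPKM of the 6 in every library, 138 to 255, and Mcm2 or Mcm4 the lowest, 3.79 to 5.35 times below it.

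The factors that turn the loaded ring into a moving helicase had a median log2 fold change of 0.08, and none passed the unadjusted threshold. Cdc45, which binds the ring when the origin fires, had 1218, 1436 and 1602 across Mock 1 to 3, against 1910, 1463 and 961.1 across HIF-1α-KD 1 to 3. The highest and the lowest library both belonged to the HIF-1α-KD group, and the log2 fold change was -0.02 (SE 0.25, limma adjusted p = 0.980, 95% interval -0.58 to 0.54). Gins1, Gins2 and Gins3, subunits of the GINS complex, had log2 fold changes of 0.08, 0.07 and 0.23. Mcm10, which supports the same activation step, had 419.8, 804.8 and 607.6 against 920.1, 966.4 and 589.1, with a log2 fold change of 0.45. For Mcm10 the lowest HIF-1α-KD library lay below 2 Mock libraries.

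For the sliding clamp the means of the groups were nearly equal. Pcna, the ring that holds the polymerases on DNA, had normalized counts of 4024, 4606 and 4495 across Mock 1 to 3, against 5516, 4596 and 3383 across HIF-1α-KD 1 to 3. Its log2 fold change was 0.01 (SE 0.19, limma adjusted p = 0.983), with a 95% interval from -0.41 to 0.44 that lay within 1.5-fold in either direction. HIF-1α-KD 1 was the highest and HIF-1α-KD 3 the lowest of the 6 libraries, with the Mock libraries between them. The clamp is opened by the loader, replication factor C, whose 5 subunits differed in direction.

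Rfc1, the large subunit of the loader (chr5:65261850-65335670), had 1362, 2191 and 2184 across Mock 1 to 3, against 2604, 2603 and 3311 across HIF-1α-KD 1 to 3. It was the only member whose HIF-1α-KD libraries all lay above all Mock libraries, and the only one highest in HIF-1α-KD 3. The mean was 1912 ± 477 (SD) in Mock and 2839 ± 408 in HIF-1α-KD cells, a fold change of 1.51 (log2 0.59, SE 0.21, limma adjusted p = 0.329). When 1 library was left out, Rfc1 was past the unadjusted threshold in 5 of the 6 cases, the exception being the comparison without HIF-1α-KD 3, and without both Mock 1 and HIF-1α-KD 1 its log2 fold change was 0.42. Rfc4, a small subunit (chr16:23113943-23127737), had 871.6, 822.0 and 803.3 across Mock 1 to 3, against 793.9, 760.2 and 593.7 across HIF-1α-KD 1 to 3. All HIF-1α-KD libraries lay below the Mock libraries for Rfc4, and the log2 fold change of -0.23 (SE 0.17, limma adjusted p = 0.609) was the lowest of the 40. On the FPKM scale, however, Mock 3 (37.1) lay below HIF-1α-KD 1 (37.8) and 2 (37.7), so the separation of Rfc4 depended on the scaling. Rfc2, Rfc3 and Rfc5 overlapped between the groups, with log2 fold changes of 0.12, 0.18 and -0.05.

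Replication protein A, which coats single-stranded DNA, also had members in both directions. Rpa2 had 1076, 1581 and 1535 across Mock 1 to 3, against 2274, 1829 and 1283 across HIF-1α-KD 1 to 3, with a log2 fold change of 0.34. Rpa1, the large subunit, and Rpa3, the smallest, had log2 fold changes of 0.06 and -0.08. Rpa3, the member with the least GC, was highest in Mock 1 (875.3) and lowest in HIF-1α-KD 1 (681.3, beside 681.5 in HIF-1α-KD 3), the reverse of most members.

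Among the primase and polymerase genes the log2 fold changes ran from -0.14 to 0.28. Prim1, the catalytic subunit of primase, had 1321, 1206 and 1325 across Mock 1 to 3, against 1369, 1173 and 991.1 across HIF-1α-KD 1 to 3. HIF-1α-KD 3 was the lowest library and the other 5 lay close together, and the log2 fold change was -0.14 (SE 0.16, limma adjusted p = 0.768). Pola1, the catalytic subunit of polymerase alpha, had 2109, 2475 and 2497 against 3998, 2920 and 1878, and Pold1, that of polymerase delta, had 520.7, 1049 and 1034 against 1364, 750.6 and 698.8. The HIF-1α-KD libraries of Pola1 lay on both sides of all Mock libraries, and those of Pold1 had 1 library above and 2 within the range of Mock. The log2 fold changes of Pola2, Prim2 and Pole were 0.09, -0.12 and 0.28. Fen1, which trims the flaps of Okazaki fragments, and Lig1, which seals them, had log2 fold changes of 0.32 and 0.26, and both were lowest in Mock 1 (1215 and 940.5) and highest in HIF-1α-KD 1 (2536 and 2001).

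Ribonucleotide reductase, which makes the deoxynucleotides, was the only step with both members below 0. Rrm2, its S-phase subunit, had 3428, 4238 and 3733 across Mock 1 to 3, against 4004, 3741 and 2259 across HIF-1α-KD 1 to 3. The low value came from HIF-1α-KD 3, and the log2 fold change of -0.23 (SE 0.22, limma adjusted p = 0.708) was 0.03 without it. Rrm1, the large subunit, had 5913, 6905 and 6382 against 8641, 6645 and 4117, so that HIF-1α-KD 1 was highest and HIF-1α-KD 3 lowest. Its log2 fold change of -0.05 was just above 0 with scaling by library size alone, with FPKM and with DESeq2.

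The regulators of S-phase entry held the largest difference. Ccne1, which encodes cyclin E1 (chr7:38097984-38107534), had normalized counts of 397.6, 599.1 and 526.7 across Mock 1 to 3, against 1106, 905.3 and 561.4 across HIF-1α-KD 1 to 3. HIF-1α-KD 1 and 2 lay above all Mock libraries, and HIF-1α-KD 3 lay below Mock 2. The mean was 508 ± 102 (SD) in Mock and 858 ± 275 in HIF-1α-KD cells, a fold change of 1.65 (log2 0.72, SE 0.27, limma adjusted p = 0.342), and without both Mock 1 and HIF-1α-KD 1 the log2 value was 0.34. Ccne1 too was past the unadjusted threshold in 2 of the 6 comparisons that left out 1 library, those without Mock 2 and without HIF-1α-KD 3. Ccne2, which encodes cyclin E2, had 518.3, 442.1 and 366.0 against 468.1, 670.3 and 423.9, with a log2 fold change of 0.22 (SE 0.23, limma adjusted p = 0.725). Its highest library was HIF-1α-KD 2 and its lowest Mock 3, unlike Ccne1. E2f1, an activating E2F factor, had 1464, 2088 and 2778 against 2937, 2151 and 1886, with a log2 fold change of 0.16 (SE 0.25, limma adjusted p = 0.825). E2f8, a repressing member of that family, had 270.8, 712.0 and 459.0 against 682.1, 486.8 and 367.3, with a log2 fold change of 0.15 (SE 0.36, limma adjusted p = 0.888). The groups overlapped in both, and Mock 1 was the lowest library of each.

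The genes that rebuild chromatin behind the fork varied most between libraries. Chaf1a, the large subunit of chromatin assembly factor 1, had 704.2, 1486 and 1233 across Mock 1 to 3, against 2432, 1552 and 1246 across HIF-1α-KD 1 to 3, 3.45-fold from lowest to highest. Its log2 fold change of 0.62 (SE 0.32, limma adjusted p = 0.463) was the second largest of the 40, and without both Mock 1 and HIF-1α-KD 1 it was 0.04. Uhrf1, which reads half-methylated DNA and brings in the maintenance methyltransferase, had 2047, 4215 and 3833 against 6530, 3779 and 2965, a log2 fold change of 0.38. In these genes too, Mock 1 was lowest and HIF-1α-KD 1 highest.

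Per length, the replication genes were among the well-expressed genes of the tumor cells. The median FPKM over the 6 libraries was 36.1 for the members and 13.8 for all genes tested, and 36 of the 40 members lay above the latter. Pcna was highest, at 194 ± 19.4 (SD) in Mock and 207 ± 44.9 in HIF-1α-KD cells, followed by Mcm7, Mcm3, Mcm6 and Rrm2. The lowest 4 were Ccne2, Orc1, E2f8 and Gins3, the last at 4.79 ± 0.412 in Mock and 5.86 ± 0.882 in HIF-1α-KD cells. The mean of Pcna was 37.6 times that of Gins3. Within complexes that hold their subunits in equal number the messages were unequal. Gins1 exceeded Gins3 by 5.04 to 6.84 times in the 6 libraries, and Rfc3 was the highest of the 5 loader subunits in each, 1.98 to 2.83 times above the lowest, which was Rfc1 in 4 libraries and Rfc5 in HIF-1α-KD 2 and 3. Rpa1 was the highest subunit of replication protein A except in HIF-1α-KD 1, where Rpa2 was. Neighbours in the order of level could lie closer together than their SD, such as Pcna and Mcm7 (180 ± 36.5 in Mock and 199.5 ± 50.2 in HIF-1α-KD cells).

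**Figure D4:**
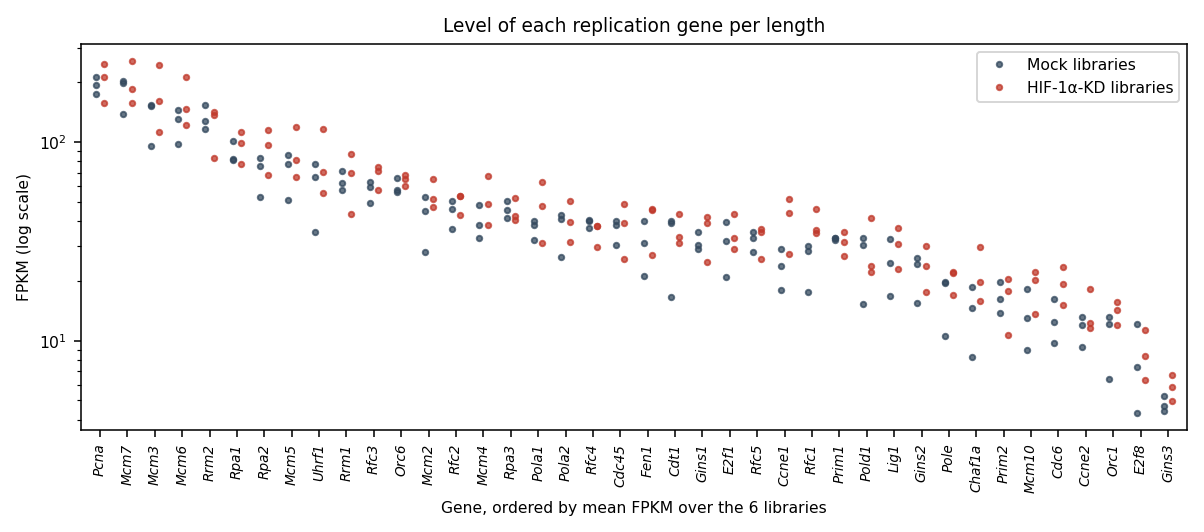
FPKM of each replication gene in each library on a log axis, with genes ordered by their mean over the 6 libraries, Mock libraries in dark blue and HIF-1α-KD libraries in red. Levels run from a mean of 200.4 (Pcna) to 5.33 (Gins3), and the colours overlap in every gene but Rfc1.

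A second list of 58 replication genes outside the 40 had a median log2 fold change of 0.07 and 36 genes above 0. None passed the adjusted test. At an unadjusted p-value under 0.05, 5 were higher in HIF-1α-KD cells, beside 7.04% of all genes tested, namely Cdc25a (log2 0.52), a phosphatase that activates the cyclin E kinase, Top1 (0.47), Pold3 (0.44), E2f2 (0.77) and Atad5 (0.71), which unloads the clamp. Lower at that threshold were 3, beside 5.69% of all genes tested, namely Rb1 (-0.59), which encodes the retinoblastoma protein, Pold4 (-0.55) and Dut (-0.39). Both counts were close to the background. Of 24 genes of mitosis, 5 lay above 0 and 19 below, where 52.7% of all genes tested lay above 0, and the median was -0.19. At the unadjusted threshold none was higher and 3 were lower, beside 5.69% of all genes tested, namely Nusap1 (-1.01), Ccnb1 (-0.76) and Ndc80 (-0.45). The values of largest size in this list were positive, Mki67 at 1.19 and Cenpe at 1.13, neither past the threshold. The groups did not overlap in 3 mitotic genes, beside 19.2% of all genes tested, namely Cenpe and Cenpf, higher in HIF-1α-KD cells, and Ndc80, lower. Their medians per library were 0.03, 0.31 and -0.01 in Mock 1, 2 and 3 and 0.02, 0.15 and -0.46 in HIF-1α-KD 1, 2 and 3. The median of the mitotic genes was thus low in HIF-1α-KD 3, as that of the replication genes was, and near 0 in Mock 1 and HIF-1α-KD 1. Of the 24 mitotic genes, 15 were lowest of the 6 libraries in HIF-1α-KD 3, beside 14.9% of all genes tested. Highest in that library were 4, Mki67, Cenpe, Cenpf and Cenpa, beside 18.4% of all genes tested. Lowest in Mock 1 were 6, beside 27.1%. Whether the lists differ in their difference between the groups was not tested.

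**Figure D5:**
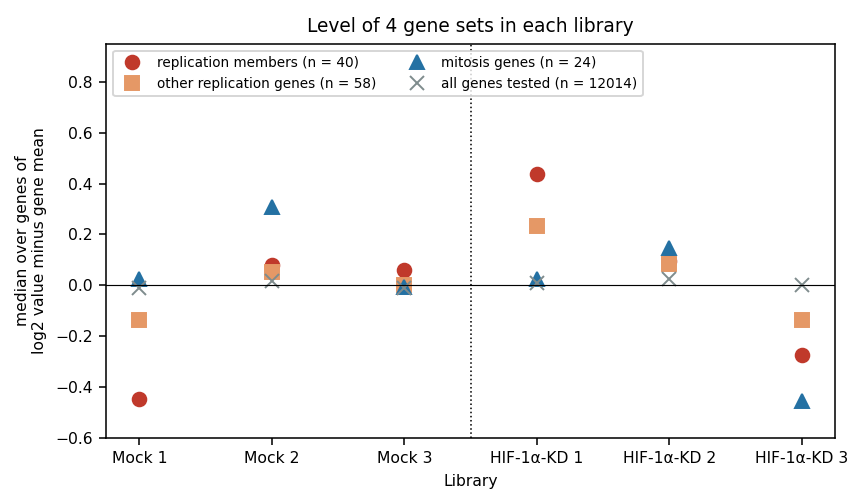
Median over genes of the log2 value minus the gene's mean, in each library, for the 40 replication genes, the 58 other replication genes, the 24 mitosis genes and all 12014 genes tested. The replication genes lie at -0.45 in Mock 1, 0.44 in HIF-1α-KD 1 and -0.28 in HIF-1α-KD 3, the mitosis genes at 0.03, 0.02 and -0.46 in the same libraries, and all genes near 0.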

How the data were processed

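RNA of sorted MC-38GFP tumor cells was analysed in 6 libraries, grouped by the knockdown label into 3 Mock and 3 HIF-1α-KD. Per the methods, libraries were made with a stranded poly-A kit and read from 1 end, reads were aligned with STAR and counted with featureCounts, and DESeq2 was used for testing, while the processing notes of the labels name STAR, edgeR and GRCm38. The methods name a human assembly, whereas the gene identifiers are those of mouse. The strand setting of the counting is not given in the sources used here.

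The authors deposited normalized counts, a signal in which each gene's reads were divided by 1 factor per library, with 4 significant digits. They deposited FPKM values computed from the same reads and the width of the gene, the GC content of each gene as a fraction, and its width in bases. The deposited log2 ratio, p-value and false discovery rate of the authors' own comparison were not used. Multiplying by the factor gave whole reads for 100% of values up to 300 reads (tolerance 0.02 reads or 0.0006 of the value).

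Genes were kept by filterByExpr of edgeR 4.0.16 on these reads (by condition, minimum count 10), which left 12014. Normalized counts plus 1 were put on the log2 scale and compared by limma 3.58.1 with a mean-variance trend, two-sided, with Benjamini-Hochberg adjustment over all genes tested. Fold changes are on that scale, HIF-1α-KD over Mock. Alternatives were other scaling, filters and pseudocounts (0.1 and 10), edgeR and DESeq2 1.42.0 on recovered reads, FPKM, a block for replicate number and leaving out libraries. The correction for GC content and width, and the comparison without replicate 1 of both groups, were chosen after seeing the data. The code was tested on simulated data.

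The members and the other gene lists were chosen with earlier results of these data known. Statistics were given for members with an unadjusted p under 0.05, the 3 highest and 3 lowest by fold change and 10 regulators fixed by name, and for Hif1a, and by name for genes of the other lists under the same p. Gene positions are from GENCODE (GRCm38). Of the 38 promoter windows, the last bases of 31 were found in a transcript of the gene on the same strand. R 4.3.3, Python 3.11.15, pandas 2.3.3, numpy 2.4.6 and matplotlib 3.10.9 were used.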

Additional observations from a re-analysis of the deposited data

How the results depend on the processing

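No setting gave a replication gene at an adjusted p-value under 0.05, where all genes tested gave from 0 calls (replicate block) to 283 (DESeq2). Under every setting that kept all 6 libraries, 2 or 3 members were higher at an unadjusted one and 0 lower. The backgrounds were 5.97% to 9.03% of all genes tested for higher and 4.36% to 7.76% for lower. Members without overlap of the groups were 1 in place of 2 with scaling by library size alone and with FPKM. The share of all genes tested without overlap was 20.002% with library size alone and 19.985% with FPKM. Leaving out 1 library gave 1 to 8 members higher (background 3.94% to 7.70% of all genes tested), 0 lower (background 4.25% to 5.87%), 2 to 14 without overlap (background 26.0% to 31.1%) and a median log2 fold change from -0.0069 to 0.34. Without replicate 1 of both groups, 1 was higher (background 6.14%), 2 were lower (background 5.59%), 11 did not overlap (background 43.6%) and the median was -0.12. There the log2 fold change changed sign in 24 of the 40 members, among the 14 genes with full statistics in Mcm2 (-0.039), Pcna (-0.21), Cdt1 (-0.37), E2f1 (-0.26) and E2f8 (-0.43). When 1 library was left out it changed sign in 2 to 13 of the 40 members (9 without Mock 1, 13 without HIF-1α-KD 1), among those 14 genes in Rrm2 (-0.38 to 0.032), Pcna (-0.15 to 0.21), Cdt1 (-0.20 to 0.42), Cdc45 (-0.25 to 0.25), E2f1 (-0.076 to 0.39) and E2f8 (-0.20 to 0.49). Genes near 0 changed sign with the scaling, Pcna to -0.0081 with TMM and Cdc45 to 0.036 with library size or FPKM, 0.0040 with edgeR and 0.013 with DESeq2. The cause was not tested.

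Cdc6 and Ccne1 missed the unadjusted threshold in 4 of the 6 comparisons that left out 1 library, and Rfc1 in 1. With all libraries, Cdc6 missed it with the correction for GC content and width (log2 0.47), without the mean-variance trend and with the replicate block. The block left Ccne1 and Rfc1 past it, 2 in place of 3 (background 5.97% of all genes tested), and no adjusted call among all genes. Libraries with the same number did not deviate together (correlations across genes -0.14, -0.12 and 0.02), so the numbers were not taken as pairs. With 3 libraries per group, 31 members had intervals that include a 1.5-fold difference.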
